A study of Mus musculus with 3 samples.

Results

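Immunoglobulin light chain variable (V) genes were followed in single cells from inguinal white fat of the mouse, a subcutaneous depot. All features whose symbol starts with Igkv (kappa) or Iglv (lambda) were taken, which gave 163 of 31053 features: 160 Igkv genes on chromosome 6 and 3 Iglv genes on chromosome 16. GENCODE M21 lists 103 of them as V genes and 60 as pseudogenes. They were read in B cells (at least 4 UMIs, unique molecular identifiers, of Cd79a, Cd79b and Ms4a1 together, and no Cd3e) and in plasma cells (at least 5 UMIs of Jchain). A cell that met both rules counted as a plasma cell.

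The study compared 3 libraries of stromal and vascular cells, each 1 sample. The first is Tert wild type (TERT +/+), the second carried floxed Tert with Pdgfra-Cre (Pdgfra-Cre; Tert fl/fl), and the third had the same floxed allele with Pdgfrb-Cre (Pdgfrb-Cre; Tert fl/fl); they are called wild type, Pdgfra-Cre and Pdgfrb-Cre here. Tert encodes the enzyme that extends telomeres, and each Cre removes it where the promoter of a platelet-derived growth factor receptor gene is or was active, mainly in mesenchymal cells. PBS in the title of the wild-type sample is left unexplained by the labels. Whether the wild type carried a Cre, how many animals made a library, and their age and sex are not stated in the labels. With 1 library per genotype no test between genotypes was possible, all intervals are exact 95% intervals that cover counting error only, and library and genotype cannot be told apart.

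Each B cell joins 1 V gene to a J segment and a constant gene to build a light chain, either kappa (Igkv with Igkc) or lambda (Iglv with Iglc), and keeps that choice through division. Most mouse B cells are kappa, the mouse lambda locus being very small. Plasma cells make the same chain in large amounts for secretion, so the V gene in the messenger RNA marks the cell's antibody and its descent. The libraries were primed at the 3′ end of the messenger RNA, far from the V segment, which lies at the 5′ end.

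The ends of the V segments that the results turn on are shown first, taken from the GENCODE M21 transcripts (GRCm38). Each is the last 90 bases of the V exon in the direction of the gene. All of it is coding sequence except in Iglv3, which reads into a stop codon (taa) just before its last base. Iglv1 (chr16:19085017-19085106, minus strand) carried most lambda V UMIs, and Iglv2 (chr16:19260401-19260490, minus strand) is its near copy: capitals mark the 3 bases at which these ends differ.
Iglv1: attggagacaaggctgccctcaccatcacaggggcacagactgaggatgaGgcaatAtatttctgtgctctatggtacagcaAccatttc
Iglv2: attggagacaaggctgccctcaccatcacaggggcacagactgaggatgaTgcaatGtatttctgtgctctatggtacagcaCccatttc
The third lambda gene, Iglv3 (chr16:19241207-19241296, minus strand), and the 4 Igkv genes called in the most plasma cells follow: Igkv10-96 (chr6:68631963-68632052, minus strand), Igkv15-103 (chr6:68437836-68437925, plus strand), Igkv5-39 (chr6:69900424-69900513, minus strand) and Igkv6-15 (chr6:70406469-70406558, minus strand). Igkv14-126 (chr6:67896553-67896642, plus strand) and Igkv4-91 (chr6:68768555-68768644, minus strand) are shown for their heavy chain partners, described below. In these, capitals mark the codon of the conserved cysteine that ends the last framework region, after which the antigen contact loop begins.
Iglv3: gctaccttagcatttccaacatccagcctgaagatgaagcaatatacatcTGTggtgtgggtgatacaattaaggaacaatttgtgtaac
Igkv10-96: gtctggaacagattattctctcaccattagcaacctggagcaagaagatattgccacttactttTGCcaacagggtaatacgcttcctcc
Igkv15-103: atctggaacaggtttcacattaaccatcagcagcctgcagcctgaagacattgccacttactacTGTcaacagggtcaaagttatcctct
Igkv5-39: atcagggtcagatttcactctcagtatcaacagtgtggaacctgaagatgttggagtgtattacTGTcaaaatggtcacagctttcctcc
Igkv6-15: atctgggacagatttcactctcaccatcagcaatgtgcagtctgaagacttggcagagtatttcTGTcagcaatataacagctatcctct
Igkv14-126: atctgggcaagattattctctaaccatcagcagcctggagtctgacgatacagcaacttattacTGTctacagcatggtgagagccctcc
Igkv4-91: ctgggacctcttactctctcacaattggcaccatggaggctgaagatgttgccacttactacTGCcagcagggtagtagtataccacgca

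Iglv1 and Iglv2 were 96.7% identical over the shorter transcript, and 182 of the 371 words of 21 bases in Iglv1 also stood in Iglv2 and in no other transcript. Iglv3 shared no such word with any other transcript. The longest exact run that Iglv1 shared with any Igkv, Igkj or Igkc transcript was 12 bases. Of all 163 members, 85 shared at least 50% of their 21-base words with another transcript, so counts of close Igkv relatives are uncertain.

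Of the deposited barcodes, 4124 in wild type, 2310 in Pdgfra-Cre and 4355 in Pdgfrb-Cre, 2668, 1409 and 3903 passed the filters, at 3320.5, 7504 and 5685 UMIs in the median cell (this order of libraries is kept throughout). B cells numbered 628, 26 and 870, and plasma cells 35, 2 and 42. Pairs of libraries shared 1 to 5 barcodes. In Pdgfra-Cre, 13 of the 26 B cells and both plasma cells had at least 3 Xist UMIs and no Y-linked UMI, while 66.4% of its kept cells had a Y-linked UMI. Such cells numbered 15 in that library, all of them B or plasma cells, and 0 in the others. These 15 cells thus stand apart from the rest of their library, and 8 of the other B cells had a Y-linked UMI.

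The B cell label held in every library: the 9 B cell markers that the rule does not use, such as Pax5, were each seen in at least 10% of the B cells. The plasma cell label held for most Pdgfrb-Cre cells that met the rule. A cell there had a median of 10 of the 11 plasma markers other than Jchain (range 4 to 11), and 36 of 42 had at least 6. The 42 cells varied: 1 of 6992 UMIs had 6 Jchain, 15 Igkc and 25 UMIs of the B cell rule genes. All 42 are counted as plasma cells below. By the marker count the label did not hold for most wild-type cells that met the rule. These had a median of 4 (range 1 to 10), and 7 of 35 had at least 6. The 2 Pdgfra-Cre cells that met the rule had 3 and 11 of these markers. The count was not matched for depth, at medians of 8664 UMIs in wild type, 13271 in Pdgfra-Cre and 26156.5 in Pdgfrb-Cre. Over all 35 wild-type cells together, all 8 germinal centre markers, such as Bcl6, were each seen in at least 10% of cells. Their summed level was 1201 CPM (a share of all UMIs, scaled alike in each library). It was 56.4 CPM in wild-type B cells and 110.9 CPM in the plasma cells of Pdgfrb-Cre. The 35 cells were not alike. A cell of 1710 UMIs had 321 Igkc, 172 Ighg1 and 0 UMIs of the B cell rule genes. Another, of 17444 UMIs, had 86 Igkc and 89 UMIs of those genes. The wild-type cells are therefore called Jchain-positive cells below.

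A V gene UMI was rare in T cells, and most B cells of wild type and Pdgfrb-Cre had none. In B cells 95 of 628, 13 of 26 and 92 of 870 cells had a V UMI, which is 15.1% (12.4 to 18.2), 50% (29.9 to 70.1) and 10.6% (8.61 to 12.8), at medians of 3716.5, 5602.5 and 3398.5 UMIs per cell. In T cells (at least 2 Cd3e UMIs and none of the B cell genes), which should lack these transcripts, the values were 0.293%, 0 of 172 cells (up to 1.74% at 3 counts) and 0.620%, at medians of 6116, 5560 and 6886 UMIs. With each cell thinned to 1500 UMIs, the mean B cell share over all possible thinnings, computed exactly, was 6.30%, 13.3% and 4.81%, and 30, 1 and 12 shallower cells were left out. Single random thinnings scattered around this in Pdgfra-Cre, where 1 draw gave 8% of 25 cells (0.984 to 26.03) and another 20% (6.83 to 40.7). The draws gave 5.85% and 6.19% in wild type and 5.13% and 5.01% in Pdgfrb-Cre. The Pdgfra-Cre interval overlapped that of Pdgfrb-Cre in the first draw (3.75 to 6.82) and not in the second (3.65 to 6.69), so no order of the libraries is read from it. In Pdgfra-Cre, unthinned, 6 of the 13 B cells with Xist and no Y-linked UMI and 7 of the other 13 had a V UMI. V UMIs made up 42.5, 88.8 and 31.0 CPM of the B cells' UMIs.

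Markers of other cell types were also present in the B cells of these libraries. The 5 endothelial markers summed to 926, 32.7 and 117 CPM and the 6 stromal markers to 235, 51.4 and 485 CPM. Their part in the V gene values was not tested.

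Of the 163 members, 73 had a UMI in some barcode and 90 had none in any library. The detected ones were 69 of the 103 V genes and 4 of the 60 pseudogenes, the latter with 7 of all 4371 V UMIs. By library, 51, 12 and 65 members were detected in all barcodes, and 38, 11 and 48 in B cells. Wild-type and Pdgfrb-Cre B cells had 28 members in common, which is 28 of 38 and 28 of 48. The same overlap over all features was not computed, so no difference between the libraries is read from it. The 8 members found in all 3 libraries were Iglv1, Iglv2, Iglv3, Igkv17-121, Igkv2-109, Igkv4-74, Igkv4-72 and Igkv5-48.

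A V gene could be called in almost no B cell. A call needed at least 3 UMIs of the leading gene and more than 50% of the cell's V UMIs, and only 1 wild-type B cell (Igkv1-135) and none of Pdgfra-Cre or Pdgfrb-Cre met this. At least 2 V UMIs were found in 10, 4 and 12 B cells, and in 5, 2 and 9 of them all fell on the same gene. Usage in B cells is therefore given over the cells with any V UMI, a choice made after the data were seen.

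No member reached the level set for a fold comparison of B cells between Pdgfrb-Cre and wild type (50 CPM in either library). The highest member stood at 5.79 CPM in wild type and 2.09 CPM in Pdgfrb-Cre, where 1 UMI is worth 0.386 and 0.298 CPM. Thus 0 of 163 members were past 2-fold, beside 14.7% of the 2637 features that could be measured, and 0 of 163 were measured.

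The leading member in B cells was Iglv3, found in 14 of 95 wild-type cells with a V UMI (14.7%, 8.30 to 23.5) and in 7 of 92 Pdgfrb-Cre cells (7.61%, 3.11 to 15.1). Igkv12-44 followed with 7 and 5 cells, then Igkv1-135 with 5 and 5 and Igkv10-96 with 3 and 6. Iglv1 was in 8 wild-type cells (8.42%, 3.71 to 15.9) and 1 Pdgfrb-Cre cell (1.09%, 0.0275 to 5.91). Igkv12-46 was in 3 and 4 cells and Igkv3-4 in 4 and 3. For no member did the intervals of the 2 libraries lie apart. Igkv17-121 was the 1 member found in at least 5 B cells of a library and in none of the other, with 5 wild-type cells (5.26%, 1.73 to 11.9) and 0 of 92 (0 to 3.93). These intervals overlap, and the share of all features found in this way was not computed, so no difference is read from it.

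Grouped by V gene family, the Igkv12 family led in wild-type B cells, with 13 of the 77 times that an Igkv gene was found in a cell (16.9%, 9.31 to 27.1), and 10 of 87 in Pdgfrb-Cre (11.5%, 5.65 to 20.1). The Igkv1 family led in Pdgfrb-Cre with 15 of 87 (17.2%, 9.98 to 26.8), against 7 of 77 in wild type (9.09%, 3.73 to 17.8). The Igkv17 family, with 3 genes, made up 9 of 77 in wild type (11.7%, 5.49 to 21.03) and 1 of 87 in Pdgfrb-Cre (1.15%, 0.0291 to 6.24). The intervals of each of these families overlapped between the libraries.

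The Igkv genes span 3149 kb upstream of the J segments, from 18.4 to 3166 kb before Igkj1, with 75 on the plus and 85 on the minus strand. Genes on either strand are used, the joining step deleting or inverting the DNA in between. The median distance of the Igkv genes found in B cells was 1782 kb in wild type (quartiles 648 and 2451, 77 detections) and 1495 kb in Pdgfrb-Cre (506 and 2451, 87 detections), against 1314 kb over the 100 Igkv genes that are not pseudogenes. Within 1000 kb lay 44.2% and 47.1% of the detections and 40% of those genes. In both libraries the genes found in B cells thus reached over most of the locus.

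**Figure D1:**
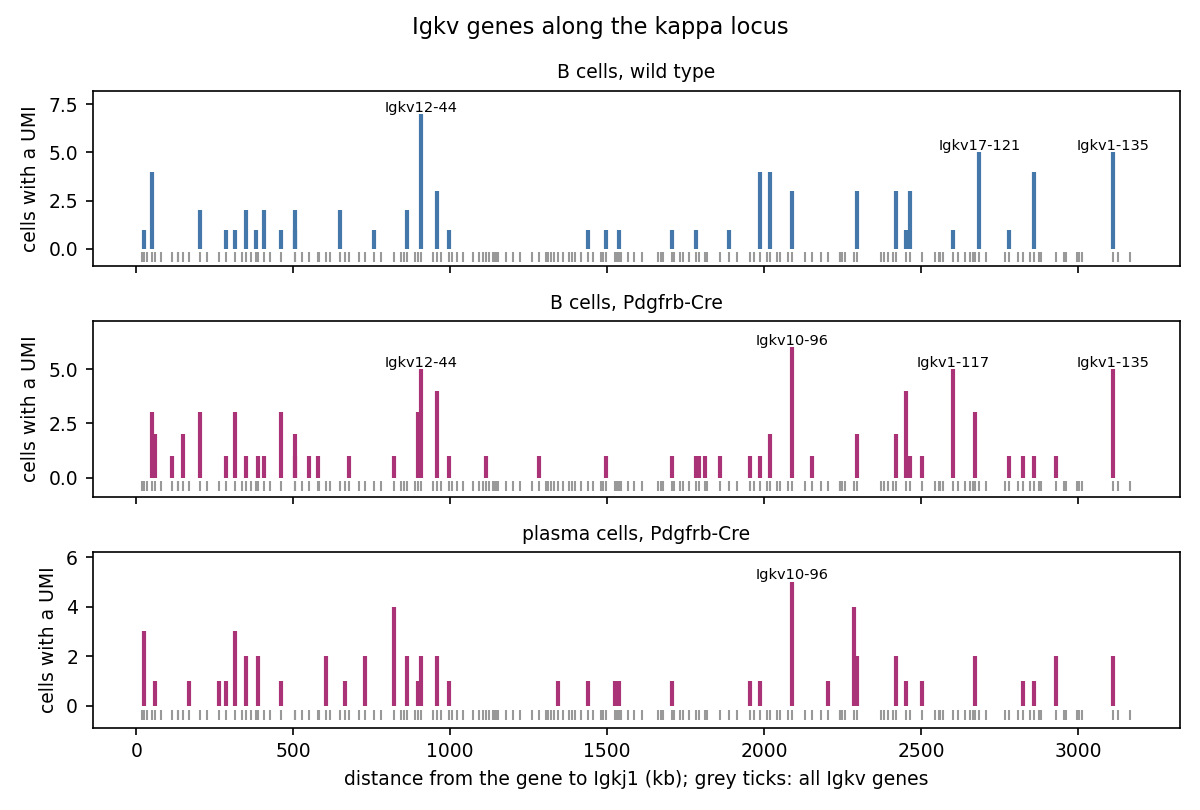
Number of cells with a UMI of each Igkv gene (vertical axis) by the gene's distance to Igkj1 in kb (horizontal axis), for B cells of wild type and of Pdgfrb-Cre and for plasma cells of Pdgfrb-Cre; grey ticks are all 160 Igkv genes and genes in at least 5 cells are named. Detections reach from the nearest to the farthest part of the locus in each panel, and Igkv12-44 and Igkv1-135 are named in both B cell panels.

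The kappa to lambda split of B cells came from the constant genes, since V calls were lacking. Over cells with at least 5 UMIs of Igkc, Iglc1, Iglc2 and Iglc3, a cell was called kappa or lambda at 80% of these UMIs. Lambda cells numbered 3 and kappa cells 295 of 605 in wild type, 2 and 22 of 26 in Pdgfra-Cre, and 20 and 666 of 808 in Pdgfrb-Cre, with 307, 2 and 122 cells between the limits. Lambda was 1.01% (0.208 to 2.91), 8.33% (1.03 to 27.0) and 2.92% (1.79 to 4.47) of the cells called. By a simple majority of constant gene UMIs, chosen after the data were seen, lambda was 3.65% (2.30 to 5.48) of 602, 7.69% (0.946 to 25.1) of 26 and 3.73% (2.53 to 5.28) of 804 cells, so the wild-type share depended on the limit.

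Mixed constant gene UMIs were common in wild type. The median lambda share of a cell's constant gene UMIs was 20.8% (quartiles 12.8 and 29.4), 12.3% (7.58 and 18.4) and 7.41% (0 and 16.7), and 6.12%, 19.2% and 40.7% of the cells lay under 5%. Summed over cells, lambda genes made up 22.8%, 12.4% and 12.9% of these UMIs in B cells, and 18.6%, 0.437% and 8.97% in the kept cells that are neither B nor plasma cells. Those other cells held 2012, 228 and 2903 Igkc UMIs. How far UMIs from other cells enter the per-cell shares was not tested.

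**Figure D2:**
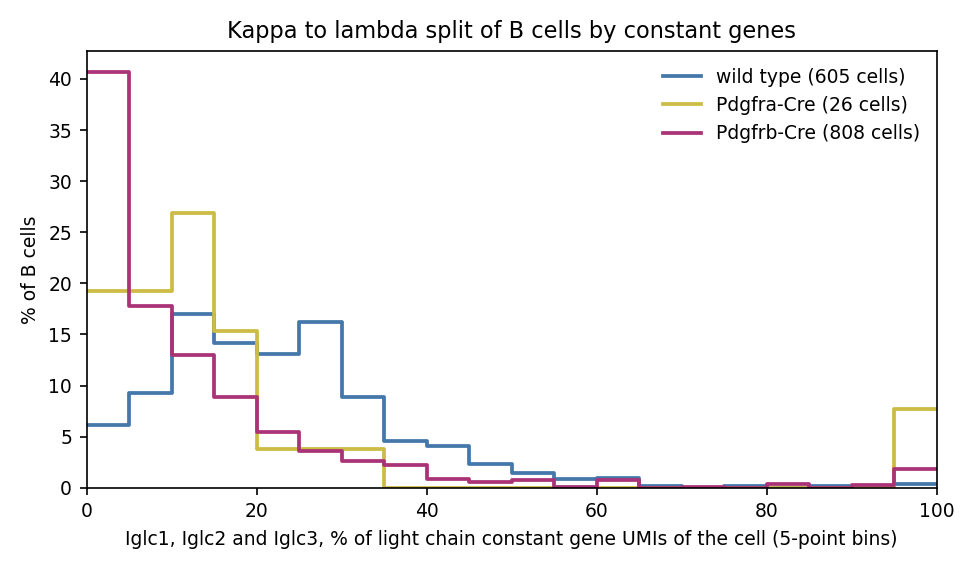
Share of B cells (vertical axis, %) by the lambda part of their light chain constant gene UMIs (horizontal axis, %, 5-point bins), 1 line per library, cells with at least 5 such UMIs. The Pdgfrb-Cre line is highest in the lowest bin at 40.7% of cells, the wild-type line at 6.12% there has its highest bin between 10 and 15%, and all have a small group of cells in the last bin.

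The few lambda V UMIs of B cells did not sit in the lambda cells. Iglv1 was found in 8, 2 and 1 B cells and Iglv3 in 14, 1 and 7, and each of these cells had more Igkc than Iglc UMIs. Iglv2 was found in 1 wild-type cell with more Igkc and in 1 Pdgfra-Cre cell with 27 Iglc and 0 Igkc UMIs, the only B cell with an Iglv UMI in which lambda was in the majority. The 22 and 30 B cells of wild type and Pdgfrb-Cre with lambda in the majority held 2 and 0 V UMIs, both of Igkv.

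Among the light chain constant genes, measured by the same fold rule in B cells (10 CPM added on both sides), Iglc3 had the largest log2 ratio of Pdgfrb-Cre over wild type in size. It had 1271, 84 and 320 UMIs, which is 491, 393 and 95.4 CPM, a log2 ratio of -2.25. Iglc2 had 1171, 257 and 431 CPM (log2 ratio -1.42), Iglc1 had 168, 355 and 124 CPM (-0.41) and Igkc had 6201, 7081 and 4377 CPM (-0.50). So 2 of 4 light chain constant genes were past 2-fold, both lower in Pdgfrb-Cre. The median of all measured features was 0.10, and it moved to 0.20 with median-of-ratios scaling, under which these 4 ratios were also below 0.

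Of the genes that build, choose and signal through light chains, many were too low to measure in B cells. Of 8 heavy chain constant genes 4 were measured, and Ighd (log2 ratio -1.09) and Ighg3 (-2.55), both lower in Pdgfrb-Cre, were past 2-fold, while Ighm had -0.23; with median-of-ratios scaling Ighd stood at -0.99 and missed the limit. Of 10 partners of the B cell receptor all were measured, and only Cd79b, a signalling chain that the B cell rule itself uses, was past 2-fold (1096 and 446 CPM, -1.28), while Lyn, a receptor-proximal kinase, was highest at 0.44. Of 15 regulators of light chain genes 14 were measured and 0 were past 2-fold, from Pou2f2, an octamer-binding factor, at -0.91 to Irf4, which acts on light chain enhancers, at 0.67. Only Vpreb3 of the 4 surrogate light chain genes (-0.00) was measured, and of 12 recombination and end joining genes only Hmgb1 (-0.08) and Hmgb2 (-0.21). None of 7 genes of mutation and class switching was measured. These lists hold few genes each, and 14.7% of all measured features were past 2-fold.

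In plasma cells of Pdgfrb-Cre the V genes were read far more deeply: 38 of 42 cells had a V UMI, and together they held 3726 V UMIs in 40 members, or 3106 CPM, at a median of 26156.5 UMIs per cell. The wild-type Jchain-positive cells held 161 V UMIs in 15 members (20 of 35 cells, 380 CPM, median 8664 UMIs), and the 2 Pdgfra-Cre plasma cells 58 V UMIs in 3 members. At least 10 V UMIs were found in 2, 2 and 35 cells. Of the wild-type cells, 31 of 35 were led by Ighg1 among heavy chain constant genes, and 14 had fewer than 3000 UMIs in all.

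Most Pdgfrb-Cre plasma cells were dominated by 1 Igkv gene. Counting Igkv UMIs alone, a choice made after the data were seen, 34 of 42 cells had a call, and the leading gene held a median of 100% of the cell's Igkv UMIs (lowest 61.2%). It held all of them in 19 cells and at least 90% in 29. The leading gene had 9 to 194 UMIs (median 32.5). The 8 cells without a call had a median of 136.5 Igkc UMIs, against 7282.5 in the cells with one.

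The calls fell on 19 Igkv genes, 12 of them in 1 cell each. Igkv10-96 led in 5 cells (14.7% of 34, 4.95 to 31.1), with 11 to 64 UMIs. Igkv15-103 led in 4 cells with 36 to 74 UMIs and Igkv5-39 in 4 cells with 16 to 30. Igkv6-15 led in 3 cells with 12 to 61 UMIs, and Igkv3-2, Igkv12-44 and Igkv14-130 in 2 cells each. The probability that 2 of these cells share their Igkv gene was 0.0499. The largest count in a cell was 194 UMIs of Igkv16-104.

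Igkv15-103 had the most UMIs of the Igkv genes in these plasma cells. All of its 212 UMIs in the series came from the 4 cells, and 0 from the 870 B cells of the same library, which allows up to 0.345% of cells with a UMI at 3 counts. Igkv14-100 with 33 UMIs and Igkv4-63 with 20 also had all their UMIs in plasma cells, each in 1 cell. Igkv15-103 shared 8.45% of its 21-base words with any other transcript. Igkv10-96, which shared 57.5%, was found in both classes, with 183 UMIs in the plasma cells and 6 UMIs in 6 B cells of that library.

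Plasma cells with the same Igkv gene often had the same heavy chain V gene. Of 33 cells with both calls, 28 pairs of cells shared the Igkv gene, and 9 of these pairs (32.1%) also shared the Ighv gene. Of the 500 pairs with different Igkv genes, 7 (1.40%) shared it. These pairs reuse the same cells and are given as a description.

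In all, 12 of the 33 cells fell into 5 Igkv and Ighv combinations seen more than once. Igkv10-96 with Ighv1-22 was seen in 3 cells, with Ighg2c, Ighg2c and Ighm as the leading heavy chain constant gene. Igkv5-39 with Ighv1-72 was also seen in 3 cells, with Ighg2b, Ighg1 and Ighg2b. Igkv12-44 with Ighv1-85 was seen in 2 cells, both Ighm, and Igkv14-130 with Ighv1-53 in 2 cells, both Ighg2c. Igkv15-103 with Ighv1-26 was seen in 2 cells, with Ighg2c and Ighg2b. The joined sequences of these cells were not analysed here, so a shared pair of V genes does not show a shared rearrangement.

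A smaller second Igkv gene was also shared within 1 combination. Both cells with Igkv14-130 and Ighv1-53 had Igkv1-135 as their second gene, with 2 and 4 UMIs beside 48 and 31 of Igkv14-130. Those 6 UMIs were all that the plasma cells of the library held of Igkv1-135. At least 10% of Igkv UMIs lay on a second gene in 4 cells. The largest second gene was in the cell led by Igkv5-39 with 30 UMIs, which had 19 UMIs of Igkv4-91 and carried Ighv12-3 and Ighm. Ighv12-3 with Igkv4-91 is a pair known from B-1 cells that bind phosphatidylcholine.

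The other known B-1 pair, Ighv11-2 with Igkv14-126, was found in both Pdgfra-Cre plasma cells, with 35 and 11 Igkv14-126 UMIs and Ighm. They had 24214 and 2328 UMIs in all, and 1 of the 2 had only 3 of the 11 plasma markers other than Jchain. No other Igkv gene had a UMI in these 2 cells. A barcode of the same library that was left out as a doublet (28978 UMIs, 920 of Jchain) had 21 Igkv14-126 UMIs, 41 of Iglv1, and Ighv11-2 and Ighm as its leading heavy chain genes, with 51 Xist and 0 Y-linked UMIs. In Pdgfrb-Cre the pair was in 1 plasma cell with 9 Igkv14-126 UMIs and Ighm.

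Igkv14-126 also led in the B cells of Pdgfra-Cre, in 4 of 26 cells with 5 UMIs, against 0 of 628 in wild type (up to 0.478% at 3 counts) and 1 of 870 in Pdgfrb-Cre. Of these 4 cells, 3 were among the 13 with Xist and no Y-linked UMI and 1 among the other 13. Of 7 B-1 or marginal zone markers, 6, among them Zbtb32 and Bhlhe41, were each seen in at least 10% of the 26 Pdgfra-Cre B cells. The remaining marker, Cd5, had no UMI in them. In the other libraries 0 of 7 were seen in at least 10% of B cells, and summed levels were 39.0, 407 and 48.6 CPM. The Pdgfra-Cre B cells were few and read more deeply (medians of 3716.5, 5602.5 and 3398.5 UMIs), so the 10% limit does not compare like with like. Ighd, high in mature follicular B cells, stood at 1026, 60.8 and 478 CPM.

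The wild-type Jchain-positive cells gave few calls. Igkv12-46 was called in 2 cells with 28 and 3 UMIs and Igkv5-39 in 1 cell with 3. The cell with the most V UMIs had no leading Igkv gene: of its 27 Igkv UMIs 11 were of Igkv19-93 and 9 of Igkv6-20. It had 47 UMIs of Iglv1, with 8521 Igkc UMIs and Ighv1-9. Igkv12-46 had 35 UMIs in 5 of the 35 cells.

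Iglv1 was the V gene with most UMIs in these plasma cells, and it lay in kappa cells. In Pdgfrb-Cre it had 2016 of the 3726 V UMIs (54.1%), in 37 of 42 cells, against 1586 for all Igkv genes together. By V calls over all members, 19 of 34 cells were Iglv1 and would be lambda, 55.9% (37.9 to 72.8). By constant genes 1 of 41 cells was lambda, 2.44% (0.0617 to 12.9), and the others kappa.

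The calls from the V genes and from the constant genes thus did not match. Of the 19 cells called Iglv1, 18 were kappa by constant genes, and in 17 the Iglc genes made up at most 5% of the constant gene UMIs. The kappa cells held 1978 of the 2016 Iglv1 UMIs (98.1%), and 36 of the 40 had an Iglv1 UMI. In wild type the kappa cells held 74 of the 76 Iglv1 UMIs, and in Pdgfra-Cre all 11. Every one of the 34 Pdgfrb-Cre cells with an Igkv call had an Iglv1 UMI, from 1 to 362 (median 37), and in 19 Iglv1 exceeded the leading Igkv gene.

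**Figure D3:**
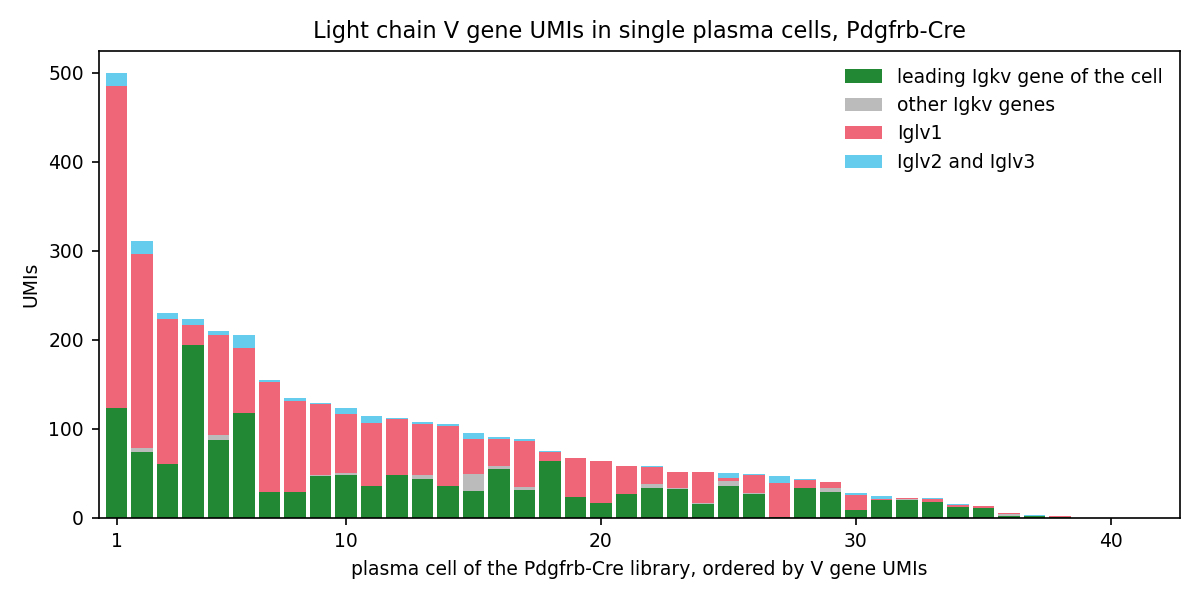
UMIs of light chain V genes (vertical axis) in each of the 42 plasma cells of Pdgfrb-Cre (horizontal axis, ordered by V UMIs), divided into the cell's leading Igkv gene, other Igkv genes, Iglv1, and Iglv2 with Iglv3. Nearly all cells with many V UMIs hold both a leading Igkv gene and Iglv1; the cell with 38 Iglv1 and 1 Igkv UMIs is the lambda cell.

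Single cells show the range. The cell with the most V UMIs had 123 UMIs of Igkv12-41 and 362 of Iglv1, with 21407 Igkc and 68 Iglc UMIs. A cell with 61 Igkv6-15 and 162 Iglv1 UMIs had 22823 Igkc and only 5 Iglc UMIs. At the other end, the cell with 194 Igkv16-104 UMIs had 23 of Iglv1 beside 34364 Igkc UMIs. The 1 lambda cell had 4072 Iglc and 428 Igkc UMIs, with 38 UMIs of Iglv1, 8 of Iglv3 and 1 of an Igkv gene, and Ighg1. A cell with 124 Iglv1 and 29 Igkv3-2 UMIs carried both kinds of constant gene, 14434 Igkc and 2640 Iglc UMIs.

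**Figure D4:**
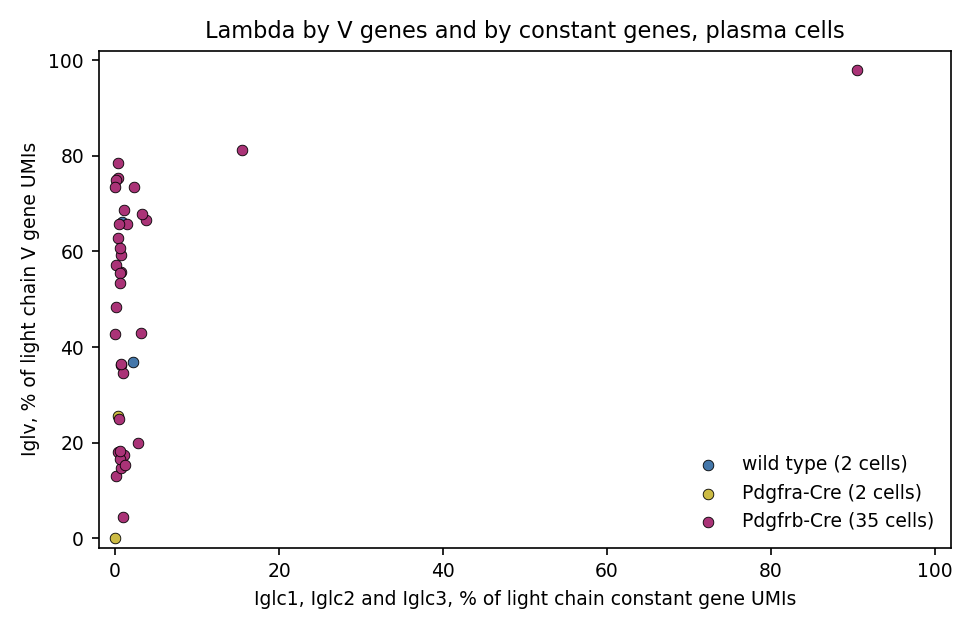
Lambda part of light chain V gene UMIs (vertical axis, %) against lambda part of light chain constant gene UMIs (horizontal axis, %), 1 point per plasma cell with at least 10 V UMIs (2 in wild type, 2 in Pdgfra-Cre and 35 in Pdgfrb-Cre). The points form a column at the left edge that runs over most of the vertical range, with 1 Pdgfrb-Cre cell at 15.5% and 1 at 90.5% lambda constant UMIs.

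Relative to Igkc, Iglv1 differed between plasma and B cells more than the Igkv genes did, though not in the same direction in every library. Igkv UMIs per 1000 Igkc UMIs were 5.36 (4.28 to 6.62), 8.58 (4.57 to 14.7) and 6.54 (5.30 to 7.99) in B cells, and 3.45 (2.71 to 4.32), 4.90 (3.58 to 6.53) and 4.26 (4.05 to 4.48) in plasma cells (in wild type, Jchain-positive cells). Iglv1 UMIs per 1000 Igkc UMIs were 0.498 (0.215 to 0.982), 2.64 (0.719 to 6.76) and 0.0681 (0.00173 to 0.380) in B cells, and 3.49 (2.75 to 4.37), 1.17 (0.584 to 2.09) and 5.42 (5.18 to 5.66) in plasma cells. In Pdgfrb-Cre the Iglv1 intervals lay apart, with plasma cells above B cells, whose value rests on 1 UMI. In wild type they also lay apart, with the Jchain-positive cells above B cells. In Pdgfra-Cre they overlapped, and the plasma cells had the lower value. The Igkv intervals lay apart in Pdgfrb-Cre, with plasma cells below B cells, and overlapped in the other libraries. In wild type the Iglv1 value of the Jchain-positive cells rests on few cells. Of the 76 Iglv1 UMIs in its 35 Jchain-positive cells, 47 came from 1 cell and 15 from another. The first of these also held 8521 of the 21750 Igkc UMIs. These Poisson intervals treat each UMI as a separate draw and leave out the spread between cells. Over the 34 Pdgfrb-Cre cells with an Igkv call, the ratio of Iglv1 to 1000 Igkc UMIs ran from 0.117 to 16.9 (median 5.27).

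**Figure D5:**
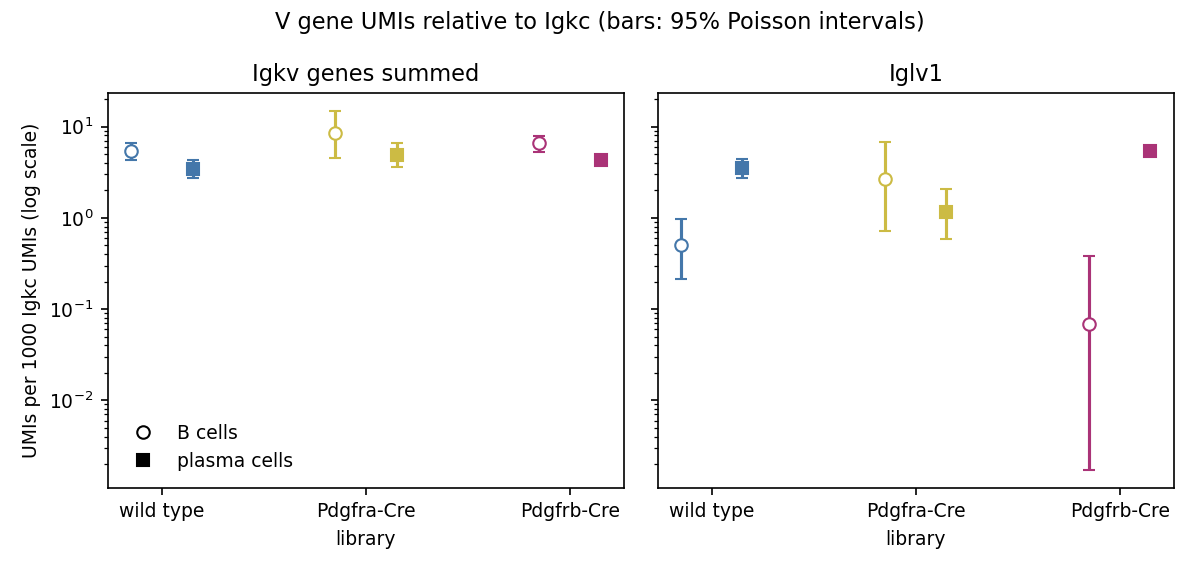
V gene UMIs per 1000 Igkc UMIs (vertical axis, log scale) for all Igkv genes summed and for Iglv1, by library; open circles are B cells, filled squares plasma cells (Jchain-positive cells in wild type) and bars 95% Poisson intervals. The Igkv points lie between 3.45 and 8.58, while Iglv1 in Pdgfrb-Cre lies at 0.0681 in B cells and 5.42 in plasma cells.

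Over the 34 Pdgfrb-Cre cells with an Igkv call, which share a library and differ in depth, Iglv1 UMIs followed total UMIs (Pearson 0.51, Spearman 0.63). They also followed Igkc (0.44 and 0.54), the leading Igkv gene (0.44 and 0.57), Jchain (0.50 and 0.46) and the plasma marker Xbp1 (0.59 and 0.64). For Iglc the values were 0.15 and -0.12. The Igkv call leaves out the lambda cell, and Iglc made up a median of 0.66% of constant gene UMIs in the 34 cells. A relation to Iglc could therefore hardly be seen here. All these values describe single cells, not replicates. In other kept cells of Pdgfrb-Cre, Iglv1 gave 9 UMIs in 9 of 2991 cells.

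Iglv3 was less abundant than Iglv1 in the same cells. It had 117 UMIs in 28 of the 42 Pdgfrb-Cre plasma cells, at most 15 in a cell, and that cell was led by 118 UMIs of Igkv12-46 with 11 Iglc UMIs. Iglv2 had 7 UMIs in 5 of these cells. In wild-type Jchain-positive cells Iglv3 had 9 UMIs in 3 cells and Iglv2 1. The features of the kappa and lambda J segments had 0 UMIs in every class and library, so the joining partner of a V gene could not be read.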

How the data were processed

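Cells of inguinal fat were profiled in 3 libraries, 1 per genotype. The authors deposited raw UMI counts for each gene in each barcode, made with Cell Ranger 3.1.0 and STAR 2.6 on mm10, per the submitters' processing notes; the 3′ chemistry is given per the labels. How reads that match several V genes were counted is not given in the sources used here. Members and gene lists were chosen with earlier results of these data known.

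Barcodes were kept from 500 genes upward and up to 15% mitochondrial UMIs, and the highest Scrublet scores (0.8% per 1000 barcodes; scanpy 1.11.5, Python 3.11.15) were left out, among them 8, 0 and 17 B cells and 0, 1 and 2 plasma cells. A V gene was called at 3 UMIs and over 50% of V UMIs. All 163 members were matched by identifier in GENCODE M21. Shares carry Clopper-Pearson and sums Poisson intervals (scipy 1.17.1). Fold values use UMIs summed over B cells as CPM with 10 CPM added, for features with 50 CPM in either library and 20 UMIs in all. Genes named are all Iglv genes, the Igkv genes most used in B cells and plasma cells, those of every Pdgfra-Cre call, and the extremes of each gene list; others are said to be chosen after their values were seen, or illustrate single cells and V gene pairs chosen in that way. Scripts were tested on simulated data. Alternatives covered cell filters, doublets, calling limits, depth, class rules and scaling.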

Additional observations from a re-analysis of the deposited data

How the results depend on the processing

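Over 18 results, 24 of 166 values recomputed under other settings left the counting interval of the reported value, or moved by over 1.5 times for a count. Some of the others could not move: the 7 alternatives of the fold comparison measured 0 members, and the lambda share of wild-type B cells by V calls rests on 1 cell. The lambda share of plasma cells depended on the genes used: in Pdgfrb-Cre it was 55.9% by V calls, 2.44% by constant genes at 80%, 2.38% at 50%, and 0% of 1 call when 90% of V UMIs were asked for, where 1 V gene was called in place of 13. In the wild-type Jchain-positive cells it was 40% of only 5 V calls (5.27 to 85.3), and 0% by constant genes at 80% and at 50%. Thinned to 1500 UMIs, the share of B cells with a V UMI was 6.30%, 13.3% and 4.81% as the mean over all thinnings, and 5.85%, 8% and 5.13% in 1 draw and 6.19%, 20% and 5.01% in another. In the first draw members with a UMI in B cells numbered 24, 2 and 27, V genes called in Pdgfrb-Cre plasma cells numbered 7, and Iglv1 made up 0% of V UMIs in Pdgfra-Cre plasma cells; fewer UMIs are counted there by construction. In wild-type B cells 5 V genes were called at 2 UMIs and 0 at 10. Without the plasma cell with most V UMIs, Iglv1 made up 35.8%, 0% and 51.3% of V UMIs, against 47.2%, 19.0% and 54.1%. With doublets kept, 2 V genes were called in Pdgfra-Cre plasma cells, and Iglv1 made up 43.3% of V UMIs. No lambda share by V calls exists for B cells of Pdgfra-Cre and Pdgfrb-Cre. Alternatives with the constant genes at 50%, left-out plasma cells, calls over Igkv alone and the mean over all thinnings were chosen after seeing the data. So was the one that left out Pdgfra-Cre B cells with Xist and no Y-linked UMI. No paired analysis was possible because each genotype is 1 library.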
